A study of Homo sapiens with 24 samples.

Results

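The joint effect of abemaciclib and fulvestrant on transcription was examined in MDA-MB-453, an ER-negative breast cancer line of apocrine type, by 3′ RNA-seq. Of the 24 libraries of the series, the 12 MDA-MB-453 libraries were used. They came from wild-type cells kept in DMEM with FBS and treated for 5 days with DMSO, with abemaciclib at 500 nM, with fulvestrant at 5 nM or with both, and n = 3 for each treatment. The other 12 libraries are from MDA-MB-231, a second ER-negative line given the same treatments, and serve here only for the comparison between lines. For each gene the interaction was taken as the log2 change under both drugs against DMSO, minus the log2 change under abemaciclib, minus the log2 change under fulvestrant. A value of 0 means that the single-drug effects add up on the log2 scale, and genes are described as above or below this sum. Of the 59609 gene symbols in the count table, 11080 passed the filter on low counts and all of these were tested, so every gene tested is a member of the comparison and none was chosen by its value.

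Abemaciclib inhibits CDK4 and CDK6, the kinases that phosphorylate Rb and so release E2F transcription factors to switch on genes of DNA replication and mitosis. Fulvestrant binds the oestrogen receptor and leads to its degradation. Cells without that receptor lack the known target of fulvestrant, so the interaction shows, gene by gene, whether the response to CDK4/6 inhibition differs when fulvestrant is also in the medium.

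The 12 libraries held 2873558 to 3952218 counts. All 12 luminal markers looked at were detected, among them KRT8, KRT18, KRT19, FOXA1, GATA3 and ERBB2, whereas VIM, CD44, SPARC, CAV1 and AXL, which mark the mesenchymal line MDA-MB-231, were at 0 counts in all 12 libraries. Of the other mesenchymal markers, ZEB1, MSN, TGFBI and COL4A2 reached at most 2.05 CPM (counts scaled to a common library total), and LGALS1 was at 228 to 473 CPM. ESR1, which encodes the oestrogen receptor, had 8 counts in abemaciclib replicate 2 and 0 in the other libraries. The progesterone receptor gene PGR had 3 counts in DMSO replicate 3 and 0 elsewhere. Neither passed the filter, and GREB1 and GPER1 did not either. Abemaciclib replicate 1 and fulvestrant replicate 3 stood apart from the other replicates of their groups. The chi-square per degree of freedom over genes was 7.67 and 8.18 for the pairs with abemaciclib replicate 1 and 7.31 and 8.39 for the pairs with fulvestrant replicate 3, against 2.64 to 3.76 for all other pairs within a group. Results below are therefore also given without these libraries.

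The interaction was called, at an adjusted p below 0.05, for 411 of 11080 genes (3.71%). Of these, 131 lay above the sum of the single-drug effects (1.18% of genes tested) and 280 below it (2.53%). The median level was 83.5 CPM for genes above the sum and 111 CPM for those below it. Over all genes tested it was 23.3 CPM. Shares of gene lists are set beside those of all genes tested without matching for level. The part of level in these shares was not tested. Abemaciclib against DMSO gave 3994 calls (36.0%), with 16.6% of genes higher and 19.4% lower. Fulvestrant against DMSO gave 148 (1.34%), with 0.857% higher and 0.478% lower, and both drugs against DMSO gave 4181 (37.7%), with 17.6% higher and 20.2% lower. Both drugs against abemaciclib alone gave 279 (2.52%), with 1.32% higher and 1.20% lower. These comparisons share libraries with the interaction, so their values are set beside it only as a description. Of the 131 genes above the sum, abemaciclib alone raised 20 and lowered 52, and fulvestrant alone raised 0 and lowered 13. Of the 280 below it, abemaciclib alone raised 154 and lowered 30, and fulvestrant alone raised 67 and lowered 0. For 57 genes above (43.5%) and 72 below the sum (25.7%) neither single drug was called, beside 63.6% of all genes tested. The genes below the sum had a median interaction of -0.73. Their median log2 change was 0.39 under abemaciclib, 0.39 under fulvestrant and 0.03 under both, all against DMSO. The genes above the sum had a median interaction of 0.72, with median changes of -0.26 under abemaciclib, -0.27 under fulvestrant and 0.25 under both. In 150 of the 280 genes below the sum (53.6%) the DMSO mean was the lowest of the 4 group means, and in 129 (46.1%) the mean under both drugs was the lowest. Of the 131 genes above the sum, 87 (66.4%) had their highest mean under both drugs and 40 (30.5%) under DMSO. Over all genes tested these shares were 25% for DMSO lowest, 25.5% for both drugs lowest, 26.7% for both drugs highest and 27.3% for DMSO highest. The interaction adds the log2 levels under DMSO and both drugs and subtracts those under the single drugs. Genes called by it therefore tend to have such an extreme, so the higher shares follow from the contrast and are no separate result.

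**Figure D1:**
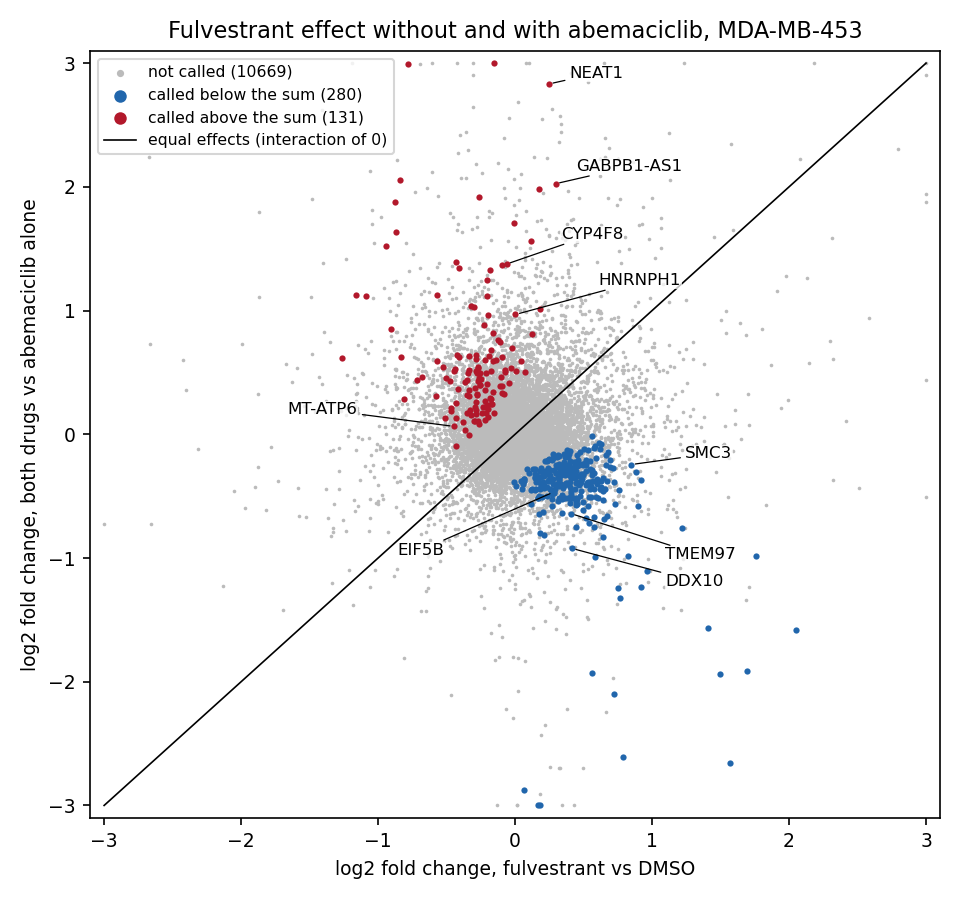
Log2 fold change of fulvestrant against DMSO (x axis) and of both drugs against abemaciclib alone (y axis) for 11080 genes in MDA-MB-453, with n = 3 libraries a group. These comparisons share no library. The vertical distance from the line is the interaction. Red points (131) were called above the line and blue points (280) below it, most of the blue ones to the right of 0 and under 0, and 24 genes beyond 3 on either axis are drawn at the edge.

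2 measures limit how these calls can be read, and both are set out in full further on. A fit that took a per-library score, the level of genes with internal A runs against that of genes without, as a covariate called 5 genes in place of 411. The number of calls moved between 159 and 921 when a single library was left out, and 103 of the 411 genes (0.930% of genes tested) were called in every one of the 12 fits that each left out 1 library. These 103 genes, 23 above and 80 below the sum, are marked below as called in all 12 fits.

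CYP4F8, which encodes a cytochrome P450 hydroxylase of fatty acids and prostaglandins, had the smallest adjusted p of any gene. The gene lies on the plus strand at chr19:15615218-15630639 (GRCh38). Its levels were 34.9, 34.7 and 23.5 CPM under DMSO, 120.5, 114 and 107 CPM under abemaciclib, 31.6, 29.5 and 27.9 CPM under fulvestrant and 242, 374 and 271 CPM under both. All 3 libraries under both drugs were above all others, and those under abemaciclib were above DMSO and fulvestrant, which overlapped. The interaction was 1.44 ± 0.20 (log2, SE; adjusted p = 0.000102). Abemaciclib alone raised it by 1.88 and both drugs by 3.25 (adjusted p = 7.49e-15 and 1.23e-23), and the change under fulvestrant alone was -0.06 (adjusted p = 0.924). It was called in all 12 fits, with values from 1.23 to 1.60, and with the A-run score as covariate it was 1.41 (adjusted p = 0.0464).

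Other genes that abemaciclib alone raised rose further than the sum under both drugs. DDIT4 encodes an inhibitor of mTORC1 signalling that is induced by stress, and its libraries read 127, 129 and 121 CPM under DMSO, 279, 278 and 271 CPM under abemaciclib, 109, 99.4 and 105 CPM under fulvestrant and 407, 375 and 338 CPM under both. The 3 libraries under both drugs did not overlap with any other group. Its interaction was 0.70 ± 0.13 (SE, adjusted p = 0.000968). TSC22D3 encodes GILZ, a leucine zipper protein induced by glucocorticoids and androgens, and stood at 392, 339 and 353 CPM under abemaciclib and 503, 548 and 523 CPM under both, from 189, 170.0 and 158 CPM under DMSO and 166, 162 and 179.6 CPM under fulvestrant. The interaction of TSC22D3 was 0.57 ± 0.12 (adjusted p = 0.00416), and both it and DDIT4 were called in all 12 fits. NUPR1, a chromatin-associated stress protein, had an interaction of 0.44 (adjusted p = 0.0153). PNPLA7, a lysophospholipase, had one of 1.46 at 3.49 to 51.6 CPM (adjusted p = 0.0229), and each was called in 8 of the 12 fits. Over the 36 tested genes of the ATF4 stress list, 4 were above the sum (11.1%), namely DDIT4, NUPR1, TRIB3 and ATF4 itself, and 2 were below it (5.56%), the tRNA synthetase genes EPRS1 and SARS1. Unlike DDIT4 and NUPR1, TRIB3 was lowered by abemaciclib alone (-0.69, adjusted p = 1.5e-06). Under both drugs it was still below DMSO (-0.37, adjusted p = 0.00658). Among all genes tested, 1.18% were above and 2.53% below.

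Among genes of RNA processing, 10 of 68 tested were called above the sum (14.7%, against 1.18% of all genes tested) and 3 below it (4.41%, against 2.53%). HNRNPH1, a nuclear RNA-binding protein that regulates splicing, is on the minus strand at chr5:179614178-179634784 and read 217, 226 and 197 CPM under DMSO, 58, 46.7 and 60.7 CPM under abemaciclib, 203, 199 and 239 CPM under fulvestrant and 99.8, 118 and 105 CPM under both. Under abemaciclib alone HNRNPH1 changed by -1.95 on the log2 scale (adjusted p = 9.58e-22), fulvestrant alone gave 0.00 (adjusted p = 0.994), and under both drugs the level was between those of abemaciclib and DMSO without overlap. The interaction of HNRNPH1 was 0.97 ± 0.15 (adjusted p = 0.000318). HNRNPDL, a related RNA-binding protein, had 125, 132 and 113 CPM under abemaciclib, below all other groups, and 217, 235 and 198 CPM under both, which overlapped with DMSO (211, 188 and 209 CPM) and fulvestrant (232, 214 and 217 CPM). Its interaction was 0.68 ± 0.13 (adjusted p = 0.00147). For DDX5, an RNA helicase, neither drug alone was called, and both drugs together gave 471, 501 and 461 CPM, against 298 to 340 CPM in the other 9 libraries. The interaction of DDX5 was 0.50 ± 0.11 (adjusted p = 0.00512), and these 3 genes were called in all 12 fits.

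The other RNA processing genes above the sum were PNISR (0.83), TRA2A (0.82), HNRNPH3 (0.72), PRPF3 (0.66), SRSF6 (0.59), SNRPG (0.57) and SRSF5 (0.55), with interactions on the log2 scale in parentheses, and were named after their values were seen. They include SR proteins, which bind exons and promote their splicing, and a core protein of spliceosomal snRNPs. SON (-0.57), PRPF6 (-0.43) and SRRM1 (-0.90), which serve in nuclear speckles and the spliceosome, lay below the sum, so the list moved both ways. The list median was 0.17, beside 0.04 over all genes tested. RBM3 and CIRBP, both cold-inducible RNA-binding proteins, were also above the sum, and they were singled out after their values were seen. RBM3 had 193, 207 and 183 CPM under DMSO, 67.3, 55.8 and 45.7 CPM under abemaciclib, 168, 163 and 152 CPM under fulvestrant and 85.5, 89.1 and 72.2 CPM under both. Its interaction was 0.81 ± 0.16 (adjusted p = 0.00228), and that of CIRBP was 0.65 ± 0.14 (adjusted p = 0.00473). Abemaciclib alone changed RBM3 by -1.78 and CIRBP by 0.50 (adjusted p = 3.2e-19 and 5.92e-05).

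Long noncoding RNAs made up 9 of the 130 annotated genes above the sum (6.92%) and 1 of the 277 below it (0.361%), beside 3.06% of all annotated genes tested. NEAT1, the RNA scaffold of nuclear paraspeckles, at chr11:65422774-65445540 on the plus strand, read 32.9, 35.5 and 30.6 CPM under DMSO, 74.3, 52 and 64.3 CPM under abemaciclib, 50.4, 38.6 and 27.9 CPM under fulvestrant and 334, 614 and 411 CPM under both. The 3 libraries under both drugs were above all 9 others, and those under DMSO and fulvestrant overlapped. Its interaction was 2.58 ± 0.41 (adjusted p = 0.012), and it was called in 11 of the 12 fits. MALAT1, the neighbouring nuclear RNA, was not called (0.39 ± 0.38, adjusted p = 0.705). GABPB1-AS1, an antisense RNA at the GABPB1 locus, stood at 82.4, 78.4 and 77 CPM under both drugs and at 13.5 to 35.8 CPM in the other 9 libraries. The interaction of GABPB1-AS1 was 1.73 ± 0.33 (adjusted p = 0.00286). It rests on 46 to 304 counts a library. It fell to 1.25 without DMSO replicate 1 and was still called there. This was the largest such fall among genes above the sum that averaged at least 10 CPM. GABPB1-AS1 shares 424 exon bases with GABPB1 on the other strand, and whether counting used the strand is not given in the sources used here.

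The noncoding transcripts that host small nucleolar RNAs in their introns, singled out after their values were seen, are known for spliced forms that are degraded in a translation-dependent way. Of 21 such genes tested, 6 were called above the sum, 0 below it, and 17 had an interaction above 0, beside 53.4% of all genes tested above 0 and 1.18% called above. GAS5 alone of these was called in all 12 fits. GAS5 had 54.3, 60.1 and 69.1 CPM under DMSO, 131, 132 and 114 CPM under abemaciclib, 53, 42.4 and 47.4 CPM under fulvestrant and 173, 153 and 179 CPM under both. Its interaction was 0.78 ± 0.17 (adjusted p = 0.00455). The other 5 were SNHG1 (1.72), SNHG12 (1.82), SNHG15 (1.33), SNHG3 (0.86) and SNHG19 (0.60), on the log2 scale. The 3 largest of these rest on low levels. SNHG12 averaged 8.19 CPM and SNHG15 averaged 15.4 CPM, called in 3 and 5 of the 12 fits. SNHG1 averaged 16.6 CPM, with 14 counts in abemaciclib replicate 3, and was called in 11 fits. SNHG5 had the lowest value of the 21, -1.39 ± 0.36, and was not called (adjusted p = 0.0826).

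Among genes averaging at least 10 CPM, the remaining ones with the largest values above the sum were LINC01578 (1.51), RBM6 (1.45), TEPSIN (1.69), STK36 (1.47), ZNF692 (1.44) and CYTH1 (1.36). RBM6 encodes an RNA-binding splicing regulator, TEPSIN a partner of the AP-4 coat, STK36 a kinase of Hedgehog signalling and CYTH1 an exchange factor for ARF GTPases. LINC01578 had 43.8 to 49.3 CPM under both drugs and 16.0 to 25.4 CPM elsewhere, and RBM6 had 38.6, 50.5 and 41.8 CPM under both drugs and 14.8 to 24.4 CPM elsewhere. These 2 genes were called in all 12 fits, and the other 4 in 4 to 10 of them. At higher counts, the formin gene FHOD1, which nucleates actin filaments, had 445, 427 and 441 CPM under both drugs, above all other libraries (335, 325 and 333 CPM under DMSO, 357, 307 and 265 under abemaciclib and 252, 259.9 and 319 under fulvestrant). Its interaction was 0.75 ± 0.13 (adjusted p = 0.000332). SMPD4BP, a pseudogene with an interaction of 0.96, shares sequence with its parent gene, and how reads with several alignments were counted is not given in the sources used here.

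Genes of the respiratory chain and of the ribosome had called members mainly above the sum. Of 83 nuclear-encoded respiratory chain genes tested, 5 were called above (6.02%) and 1 below (1.20%). The shares over all genes tested were 1.18% above and 2.53% below. Among these, UQCRC2 (0.46), NDUFA4 (0.42), COX7A2 (0.40) and COX6C (0.38) were above and NDUFS1 (-0.59) below. Of 81 cytosolic ribosomal protein genes, 5 were above (6.17%) and 0 below, namely RPL22L1 (0.80), RPLP0 (0.38), RPL11 (0.34), RPS27A (0.34) and RPS12 (0.33). The list medians were 0.16 and 0.15, and with the A-run score as covariate they were -0.02 and -0.02. None of the called genes of these lists was called in all 12 fits. Of the 15 mitochondrial mRNA and ribosomal RNA genes, 4 were above the sum and 1 below, and over all 27 mitochondrial genes tested 4 were above and 3 below, the other 2 being the tRNA genes MT-TV and MT-TL1 (-0.85). MT-ATP6, a subunit of ATP synthase, read 13733, 13268 and 14957 CPM under DMSO, 16477, 14907 and 16255 CPM under abemaciclib, 10071, 9488 and 11256 CPM under fulvestrant and 16538, 16834 and 16415 CPM under both. It was lower under fulvestrant alone (-0.45, adjusted p = 4.61e-05) and changed by 0.06 when fulvestrant was added to abemaciclib (adjusted p = 0.713), and its interaction was 0.51 ± 0.09 (adjusted p = 0.000616). MT-CO3 (0.40), MT-ND4 (0.33) and MT-ND3 (0.33) were above as well, and the ribosomal RNA MT-RNR1 was below (-0.42).

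**Figure D2:**
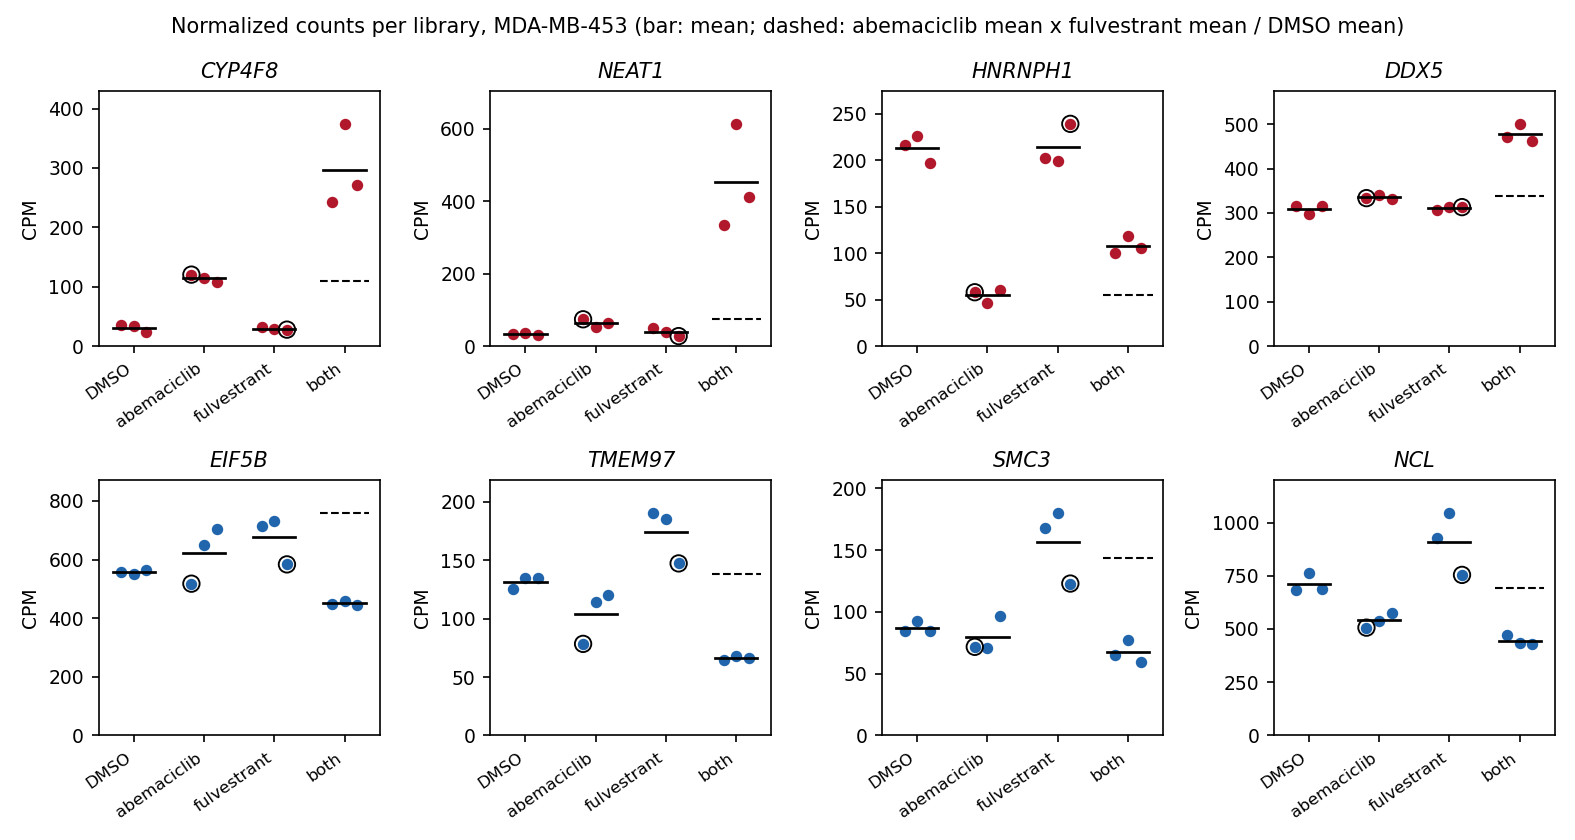
CPM of 8 genes in each of the 12 MDA-MB-453 libraries, with 4 genes called above the sum in red and 4 called below it in blue. Solid bars are group means (n = 3), dashed bars the level under both drugs if the single-drug effects multiplied, and open circles mark abemaciclib replicate 1 and fulvestrant replicate 3. Under both drugs CYP4F8 averaged 296 CPM against 109 from the single drugs, and EIF5B averaged 451 CPM against 758.

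Below the sum, the 5 smallest adjusted p values were those of TMEM97, EIF5B, METRN, MAN1A2 and SMARCC1. EIF5B, the factor that joins the ribosomal subunits at the start codon, lies on the plus strand at chr2:99337371-99401326. Its levels were 557, 551 and 564 CPM under DMSO, 518, 651 and 703 CPM under abemaciclib, 716, 732 and 583 CPM under fulvestrant and 449.9, 457 and 446 CPM under both. The libraries under both drugs were the lowest, and within the abemaciclib and fulvestrant groups the lowest libraries were replicate 1 and replicate 3. Its interaction was -0.75 ± 0.12 (adjusted p = 0.000332), and neither single-drug effect was called (0.16 and 0.28, adjusted p = 0.143 and 0.0825). EIF5B shares 852 exon bases with REV1 on the other strand. TMEM97, the sigma-2 receptor and a regulator of cholesterol traffic, lies at chr17:28319200-28328685 on the plus strand and read 125, 135 and 135 CPM under DMSO, 78.4, 114 and 119.9 CPM under abemaciclib, 190.4, 185 and 147 CPM under fulvestrant and 64.3, 68.3 and 66.6 CPM under both. The 3 libraries under both drugs were below the other 9, and the interaction was -1.05 ± 0.17 (adjusted p = 0.000332). It was the only called gene of 33 in the sterol and fatty acid list. TMEM97 shares 361 exon bases with IFT20, a gene of intraflagellar transport on the opposite strand that was called above the sum (1.10 ± 0.31, adjusted p = 0.0325). The kit keeps the strand, but whether counting used it is not given in the sources used here.

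MAN1A2, a mannosidase that trims glycans in the Golgi, had an interaction of -1.05 ± 0.17 (adjusted p = 0.000332), and SMARCC1, a core subunit of SWI/SNF chromatin remodellers, one of -0.99 ± 0.16 (adjusted p = 0.000391). SMARCC1 read 177, 161 and 142 CPM under DMSO, 197, 196 and 216 CPM under abemaciclib, 243, 282 and 175 CPM under fulvestrant and 156, 142 and 151 CPM under both, so that DMSO and both drugs overlapped and the single drugs were mostly higher. METRN encodes a secreted factor first known from neural cells. It had 77.4, 85.8 and 85.5 CPM under DMSO, 197, 220.5 and 191 under abemaciclib, 106, 124 and 84 under fulvestrant and 123, 119.6 and 148 under both, an interaction of -0.97 ± 0.16 (adjusted p = 0.000332), and its longest transcript has 0 A runs. All 5 were called in all 12 fits. The next in order, named after their values were seen, included HES1, a repressor downstream of Notch (-0.73 ± 0.13, adjusted p = 0.000391).

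The largest values below the sum at an average of at least 10 CPM, apart from cell cycle genes, included those of the mitochondrial tRNA gene MT-TV (-2.09 ± 0.41, adjusted p = 0.00592) and of 3 pseudogenes. MT-TV read 14.7, 17.1 and 13.3 CPM under DMSO, 31.2, 66.6 and 69.2 CPM under abemaciclib, 26.2, 35.1 and 15.1 CPM under fulvestrant and 16.7, 25.1 and 24.1 CPM under both, with the highest levels under abemaciclib replicates 2 and 3. The pseudogenes were MTND1P23 (-1.81), FRG1BP (-1.58) and HSP90AA2P (-1.48), each with a close expressed copy. AC090013.1 (-1.98) and AC099789.1 (-1.47) are clone names without a described product.

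The families of nuclear factor I and cohesin were singled out after their values were seen. The NFI transcription factors bind palindromic DNA sites as dimers, and their 4 genes were all called below the sum, beside 2.53% of all genes tested. NFIC read 630.5, 647 and 601 CPM under DMSO, 765, 1012 and 985 CPM under abemaciclib, 915, 977 and 668 CPM under fulvestrant and 619.9, 644 and 649 CPM under both, and its interaction was -0.98 ± 0.16 (adjusted p = 0.00219). NFIX (-0.73), NFIB (-0.56) and NFIA (-0.56) followed, and NFIA, NFIC and NFIX were called in all 12 fits. Their longest transcripts carry 3 to 14 A runs. Cohesin is the ring complex that holds sister chromatids and chromatin loops together. SMC3 read 84.6, 92.9 and 84.3 CPM under DMSO, 71.7, 71.1 and 97 CPM under abemaciclib, 168, 179.9 and 123 CPM under fulvestrant and 65, 77.6 and 59.3 CPM under both, higher under fulvestrant alone (0.85, adjusted p = 8.28e-05) than in every other group. The interactions were -1.10 ± 0.23 for SMC1A, -1.09 ± 0.19 for SMC3 and -0.64 ± 0.14 for RAD21 (adjusted p = 0.0104, 0.000418 and 0.00463), all 3 called in all 12 fits. STAG2 (-0.55, adjusted p = 0.0852) and STAG1 (0.26, adjusted p = 0.807) were not called. With the A-run score as covariate no called gene of either family stayed called (adjusted p = 0.193 to 0.931). The interactions were then -0.16 for NFIA, -0.15 for NFIB, -0.39 for NFIC and -0.58 for NFIX. Those of SMC1A, SMC3 and RAD21 were -0.36, -0.59 and -0.28.

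Among chaperone and ribosome assembly genes, 8 were called below the sum and 1 above. For comparison, 2.53% of all genes tested were below and 1.18% above. Of 36 chaperone genes tested, 4 were below (11.1%), PDIA3 (-0.73), HSP90AA1 (-0.58), HSP90AB1 (-0.54) and HSPH1 (-0.47), and DNAJB1 was above (0.49). HSP90AA1, the inducible cytosolic HSP90, read 3187, 3108 and 2929 CPM under DMSO, 2602, 3335 and 3296 CPM under abemaciclib, 4121, 4117 and 3316 CPM under fulvestrant and 2554, 2602 and 2580.4 CPM under both. Its copy HSP90AA2P was below the sum too (-1.48), and reads may be shared between them. Of 52 ribosome biogenesis genes, 4 were below (7.69%) and 0 above. NCL, the nucleolar protein nucleolin, had 926, 1044 and 754 CPM under fulvestrant, 682, 761 and 688 under DMSO, 506, 538 and 577 under abemaciclib and 471, 433 and 429 under both, with an interaction of -0.64 ± 0.12 (adjusted p = 0.00106). DDX10, a helicase of small subunit assembly, had an interaction of -1.34 ± 0.28 at 13.6 to 52.5 CPM (adjusted p = 0.00368), and NAT10 (-0.74) and WDR43 (-0.63) were below as well. The median of the ribosome biogenesis list was -0.13.

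Replication and mitosis genes, which abemaciclib alone lowered strongly, were mostly not called. Of 71 replication genes, 3 were below the sum (4.23%) and 0 above, and of 75 mitosis genes 3 were below (4.00%) and 1 above (1.33%), the spindle checkpoint gene BUB3 (0.46 ± 0.12, adjusted p = 0.0258). The shares over all genes tested were 2.53% below and 1.18% above, and each list share rests on at most 3 genes. The kinetochore gene CENPF had 12.4, 15.3 and 10.1 CPM under abemaciclib and 10.1, 8.36 and 6.84 CPM under both, from 359, 312 and 309.6 CPM under DMSO and 482, 533 and 368 CPM under fulvestrant. Its interaction was -1.10 ± 0.24 (adjusted p = 0.00497), and it was called in all 12 fits. The histone gene H4C3, the only called gene of 27 histone genes, read 758, 778 and 824 CPM under DMSO, 68.1, 103 and 83 CPM under abemaciclib, 1137, 1338 and 949.5 CPM under fulvestrant and 43.1, 49.3 and 60 CPM under both. Its interaction was -1.26 ± 0.21 (adjusted p = 0.00446) and was -0.80 with the A-run score as covariate (adjusted p = 0.0346). Copies of histone H4 genes are close in sequence, and their reads may be shared. ATAD2 (-0.72) and SMC2 (-0.86) were below the sum as well. MKI67 (-0.56 ± 0.62), E2F1 (-0.20 ± 0.24), TK1 (-0.21 ± 0.30) and CCNA2 (0.22 ± 0.75) were not called (adjusted p = 0.734, 0.765, 0.814 and 0.929).

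4 of the called cell cycle genes rest on very few counts. CDC45, a helicase subunit of the replication fork, had 2, 3 and 7 counts under abemaciclib and 0 in all 3 libraries under both drugs, with 94 to 139 counts in the DMSO and fulvestrant libraries. The exonuclease gene EXO1 had 2, 5 and 1 counts under abemaciclib and 0 under both drugs, with 64 to 100 counts in the DMSO and fulvestrant libraries. BIRC5, which encodes survivin, had 8, 3 and 6 counts under abemaciclib and 0, 0 and 2 under both. CIP2A, an inhibitor of the phosphatase PP2A, had 3, 14 and 11 counts under abemaciclib and 1, 4 and 8 under both. CDC45, EXO1, BIRC5 and CIP2A were called in 10, 3, 8 and 4 of the 12 fits. No fold is given for CDC45, EXO1 and BIRC5 because it would depend on the prior count, and the interaction of CIP2A ran from -2.72 to -1.66 without 1 library. A count of 0 over the group allows up to 3 counts.

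Of the 12 luminal markers, 3 were called, all below the sum (25%), ERBB2 and GATA3 among them. The shares in this paragraph rest on at most 3 genes each, and stand beside 2.53% below and 1.18% above over all genes tested. ERBB2, the HER2 receptor gene, was at 415, 502 and 419 CPM under abemaciclib and 342, 338 and 350.2 CPM under both, from 227 to 253 CPM under DMSO and 235, 254 and 246 CPM under fulvestrant. The interaction of ERBB2 was -0.42 ± 0.12 (adjusted p = 0.0326) and that of GATA3, a luminal transcription factor, -0.46 ± 0.11 (adjusted p = 0.00791). Of 96 genes of the oestrogen response list, 3 were below the sum (3.13%) and 0 above, among them NRIP1 (-0.70), a corepressor of nuclear receptors, and the zinc transporter gene SLC39A6 (-0.51). The list median was 0.03, beside 0.04 over all genes. Of 40 androgen and apocrine genes, 2 were above (5.0%), CYP4F8 and TSC22D3, and 3 below (7.5%), TRPS1 (-0.50) among them. PIP, an apocrine secretory gene that abemaciclib raised by 3.28, had an interaction of 0.02 ± 0.15 (adjusted p = 0.975), and that of the mammaglobin gene SCGB2A2 was -0.27 ± 0.39 (adjusted p = 0.805). FOXA1, KRT18, KRT19, CCND1, CDK4, CDK6, RB1, CDKN1A, KDM5A and TFF1 were not called either.

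**Figure D3:**
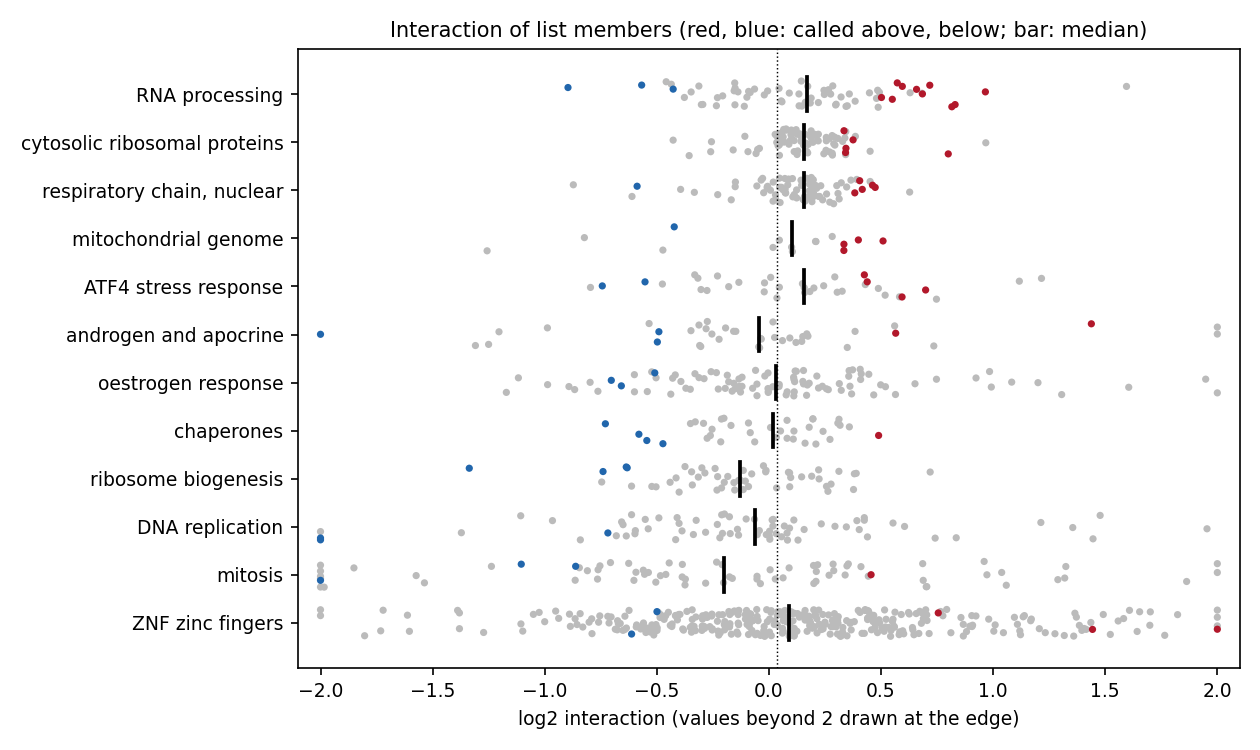
Log2 interaction of the tested members of 12 gene lists in MDA-MB-453. Each point is a gene, red if called above the sum and blue if called below it; black bars are list medians and the dotted line is the median over all genes (0.04), with values beyond 2 in either direction drawn at the edge. Medians run from -0.20 for mitosis to 0.17 for RNA processing, and called genes of the RNA processing list lie on both sides.

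The lists for glycolysis and hypoxia, immediate early genes, mitochondrial ribosomal proteins and autophagy had 0 called members of 33, 33, 75 and 36 tested. Among 352 genes named ZNF, 3 were above (0.852%) and 2 below (0.568%), against 1.18% and 2.53% of all genes tested. Of these, ZNF652 was the one called in all 12 fits (-0.61 ± 0.13, adjusted p = 0.00308). The others were ZNF419 (2.50), ZNF692 (1.44) and ZNF207 (0.76) above and ZNF106 (-0.50) below. The value of ZNF419 rests on low levels, a mean of 6.43 CPM under both drugs against 1.13 CPM if the single-drug effects multiplied. The lists for the lysosome (ATP6V1A, -0.59), the interferon response (SP110, -1.25), p53 targets (TRIAP1, 0.69) and the cilium (IFT20) held 1 called gene each of 57, 30, 29 and 36 tested. In the proteasome list PSMD7 (-0.55) and PSMD1 (-0.46) were below, of 44 tested.

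The calls depended on single libraries. Leaving out 1 library gave 159 to 290 calls for 10 of the 12 libraries, lowest without fulvestrant replicate 2 (48 above and 111 below). Without abemaciclib replicate 1 there were 770 calls (274 above and 496 below), and without fulvestrant replicate 3 there were 921 (362 and 559). Of the 411 genes called with all libraries, 406 were called in each of these 2 fits. Without both libraries there were 1362 calls (595 above and 767 below), which included 407 of the 411. Of the 280 genes below the sum, 77 were weakest, by the absolute value of the interaction, without fulvestrant replicate 2, 70 without abemaciclib replicate 3 and 67 without abemaciclib replicate 2, whereas 0 were weakest without abemaciclib replicate 1 or fulvestrant replicate 3. For the genes above the sum these numbers ran from 3 to 21 a library. Of the 131 genes above, 23 were called in all 12 fits, and of the 280 below, 80 were.

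**Figure D4:**
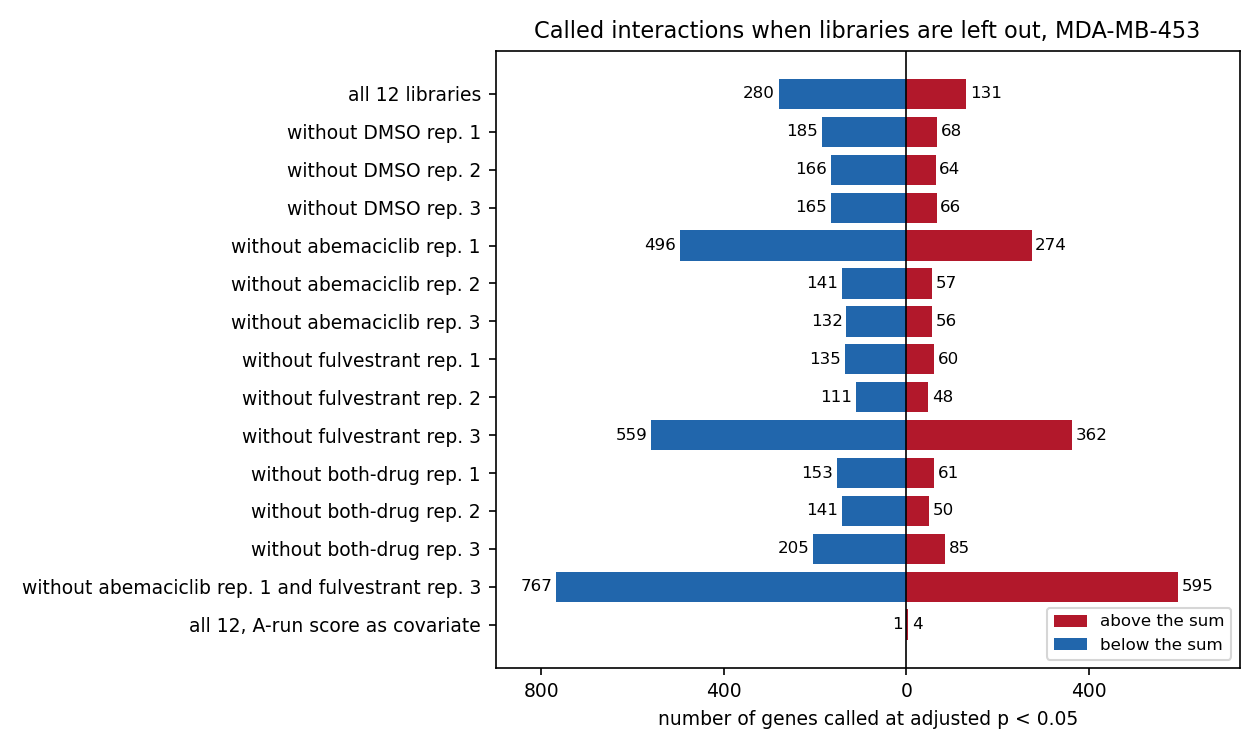
Number of genes called above the sum (red, to the right) and below it (blue, to the left) in MDA-MB-453 with all 12 libraries, without each library in turn, without 2 libraries together, and with the A-run score as covariate. The bars without abemaciclib replicate 1 or fulvestrant replicate 3 are longer than with all libraries, those without any other single library are shorter, and the last bar holds 5 genes.

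Sequence features of the called genes were set beside those of all genes tested. Libraries of this kind are primed with oligo(dT), which anneals to the poly(A) tail and can also anneal to stretches of A inside a transcript. Of the genes below the sum with an annotated transcript, 63.2% had at least 1 internal run of 8 or more A in their longest transcript, against 20.8% of genes above the sum and 39.4% of all annotated genes tested. Their transcripts had a median length of 5405 bases and a median GC content of 42.5%, against 3039 bases and 52.3% above the sum and 3858 bases and 47.6% over all genes. The median interaction was 0.09 for genes with 0 runs, -0.01 for 1 run, -0.11 for 2 to 3 runs and -0.15 for 4 or more, and the share of genes called below the sum was 1.6%, 3.13%, 4.53% and 8.46%. Among genes without a run, 103 were called above and 102 below. GABPB1-AS1 went the other way, with 16 runs and an interaction above the sum.

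The runs that lie in coding exons of genes below the sum are shown here to let the stretches concerned be seen. Among the genes called below the sum in all 12 fits, 31 carry 2 or more runs, and only 29 of these were considered. Of the 29, 6 have a run with 18 coding bases on either side in the same exon. The sequences are read from GENCODE v44 transcripts on GRCh38 in the sense of the gene, 5′ to 3′, with the A run in capitals.
EIF5B, chr2:99361169-99361212, plus strand: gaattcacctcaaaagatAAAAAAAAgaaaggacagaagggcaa
TTC3, chr21:37151925-37151968, plus strand: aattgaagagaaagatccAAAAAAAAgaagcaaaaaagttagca
PRRC2C, chr1:171541992-171542037, plus strand: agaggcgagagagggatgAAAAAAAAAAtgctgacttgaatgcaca
RIF1, chr2:151464009-151464052, plus strand: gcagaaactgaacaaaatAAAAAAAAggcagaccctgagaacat
EIF3J, chr15:44550883-44550926, plus strand: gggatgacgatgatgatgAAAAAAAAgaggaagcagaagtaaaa
LMAN1, chr18:59345944-59345988, minus strand: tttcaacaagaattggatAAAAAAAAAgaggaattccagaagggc
The 6 genes encode a ribosomal subunit joining factor (EIF5B), a ubiquitin ligase (TTC3), a large protein of stress granules (PRRC2C), a factor of DNA replication timing and repair (RIF1), a subunit of initiation factor 3 (EIF3J) and a cargo receptor between the endoplasmic reticulum and Golgi (LMAN1). Their interactions were -0.75 for EIF5B, -0.74 for TTC3, -0.66 for PRRC2C, -1.0 for RIF1, -0.55 for EIF3J and -0.72 for LMAN1. With the score described next as covariate they were -0.34, -0.25, -0.10, -0.38, -0.18 and -0.31. The deposited counts are sums per gene and do not show where in a transcript a read lay.

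A score for each library was computed from genes averaging at least 10 CPM over the libraries of the line. It was the mean log2 CPM of genes with 2 or more runs (1528 genes in MDA-MB-453) minus that of genes with 0 runs (4605 genes), centred within the line. In MDA-MB-453 it was -0.13, -0.11 and -0.17 under DMSO, 0.01, 0.11 and 0.13 under abemaciclib, 0.07, 0.09 and -0.11 under fulvestrant and 0.03, 0.02 and 0.05 under both. DMSO was thus the lowest group, abemaciclib replicate 1 was the lowest of its group, and fulvestrant replicate 3 was at the level of DMSO. The interaction of the score itself was -0.20. With the score as a covariate, 4 genes were called above the sum (0.0361%) and 1 below (0.00903%), 0.0451% of those tested. Among them were CYP4F8, GABPB1-AS1 (2.05, adjusted p = 0.0464) and PNISR (1.44, adjusted p = 0.000206) above and H4C3 below, all 4 also called without the covariate. The remaining gene, above the sum, was not called without it. The median interaction of the 280 genes below the sum went from -0.73 to -0.31 and their median SE from 0.18 to 0.20. That of the 131 genes above went from 0.72 to 0.58, with a median SE of 0.19 and 0.24. Of the genes called, 6 of those below changed sign under the covariate and 0 of those above. The score is built from the same libraries and genes, and it differs between the groups. An effect of the drugs on genes with A runs and a difference in priming or RNA quality between libraries cannot be told apart here.

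**Figure D5:**
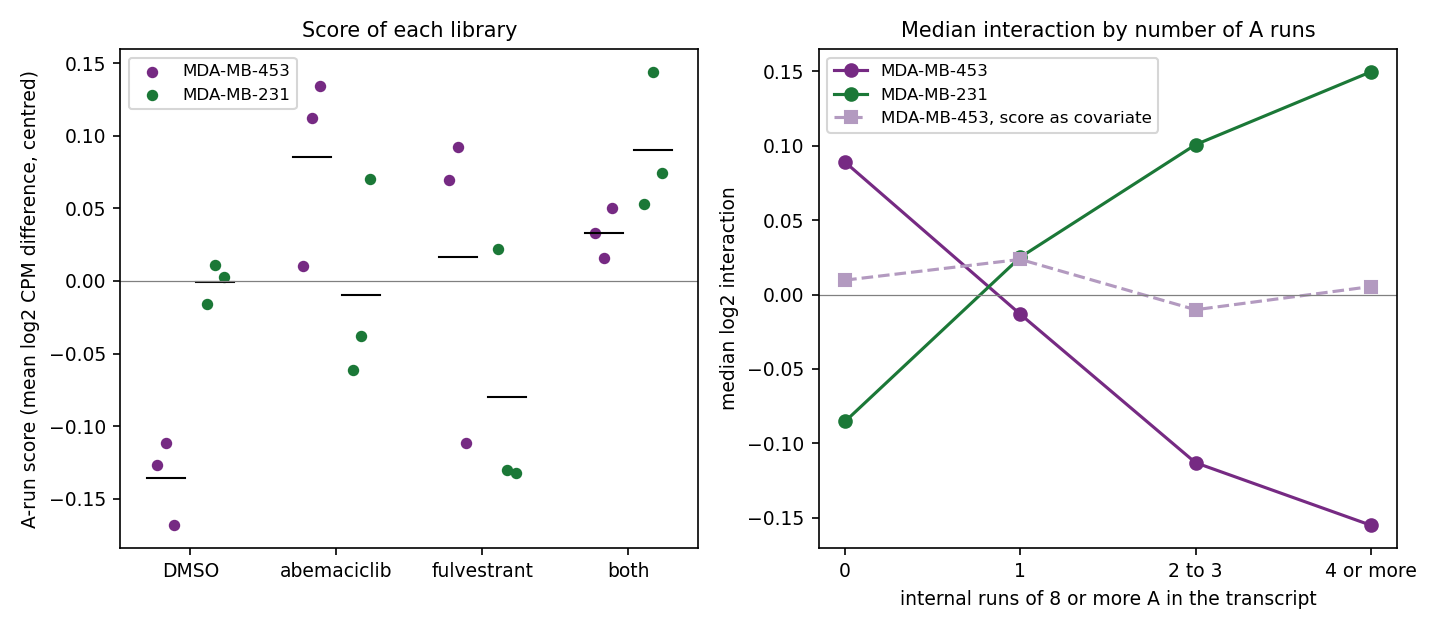
Left, A-run score (mean log2 CPM of genes with 2 or more internal A runs minus that of genes with 0, among genes averaging at least 10 CPM, centred within each line) of each library by treatment, with bars for group means (n = 3). Right, median log2 interaction of genes by number of A runs in both lines, and in MDA-MB-453 with the score as covariate. The median falls from 0.09 to -0.15 in MDA-MB-453 and rises from -0.09 to 0.15 in MDA-MB-231, and with the covariate it stays between -0.01 and 0.02.

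The same contrast in MDA-MB-231 gave 16 calls of 11314 genes tested (0.141%), 11 above (0.0972%) and 5 below (0.0442%). Single libraries moved these counts too, to 141 above and 54 below without abemaciclib replicate 3 of that line and to 337 and 147 without its fulvestrant replicate 1. The median interaction there was -0.09 for genes with 0 A runs and 0.15 for those with 4 or more, and the interaction of the A-run score was 0.18, opposite in sign to MDA-MB-453. A model with the libraries of both lines gave the difference of the 2 interactions, MDA-MB-453 minus MDA-MB-231. It was called for 510 of 12750 genes (4.00%), with 141 higher (1.11%) and 369 lower (2.89%) in MDA-MB-453. HNRNPH1 differed by 1.38 (adjusted p = 0.000122), with 0.97 in MDA-MB-453 and -0.42 in MDA-MB-231. EIF5B differed by -1.34 (adjusted p = 9.88e-06), with -0.75 and 0.58. For the 273 genes below the sum in MDA-MB-453 that were tested in both lines the median in MDA-MB-231 was 0.38, and for 125 genes above the sum it was -0.10. CYP4F8 was not among the genes tested in MDA-MB-231. The mitochondrial share of the counts in MDA-MB-453, which can alter the scaling of other genes, was 15.2% ± 0.650 (SD, n = 3) under DMSO, 23.8% ± 1.91 under abemaciclib, 14.3% ± 0.872 under fulvestrant and 21.2% ± 0.381 under both. Without the mitochondrial genes there were 122 calls above and 294 below.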

How the data were processed

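RNA from 12 MDA-MB-453 and 12 MDA-MB-231 cultures was made into QuantSeq 3′ FWD libraries, which the study states to be 3 biological replicates per treatment from an experiment performed once. Per the labels and the study's methods, the authors trimmed reads, aligned them to hg38 with STAR and counted them per gene with featureCounts on GENCODE v35. The deposited values are raw gene counts without normalization. Removal of duplicates, multi-mapping reads and counting strand are not given in the sources used here.

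Genes were filtered (filterByExpr), scaled by TMM and fitted with edgeR 4.0.16 quasi-likelihood models (robust) in R 4.3.3 over the 12 libraries of a line, with Benjamini-Hochberg adjustment over all genes tested and 2-sided tests. CPM values use TMM-scaled totals, except those of the mesenchymal markers, which use raw library totals. DESeq2 1.42.0 and limma 3.58.1 served as alternatives. The gene lists, members and naming rule (12 largest calls in each direction averaging at least 10 CPM, 5 smallest p in each direction among genes called in all 12 fits without 1 library, 3 per list and direction, fixed genes, and the call most reduced without 1 library in each direction) were chosen with earlier results of these data known, and members of a list beyond those 3 and whole families were named after their values were seen. The call most reduced without 1 library was likewise taken among genes averaging at least 10 CPM. Transcripts, positions and A runs (8 or more A, outside the last 100 bases) came from GENCODE v44 on GRCh38, matched by symbol for 95.1% of genes tested. Libraries were not treated as paired by replicate number. Deviations of same-numbered libraries from their group means correlated between -0.06 and 0.04. For other-numbered libraries the range was -0.08 to 0.13, highest between abemaciclib replicate 1 and fulvestrant replicate 3. These values do not exclude pairing. The model was tested on simulated data in which counts were drawn independently for each gene. That test cannot speak to shifts shared by many genes of a library, such as those of the A-run score. Results of some genes are not reported here. Errors given with an interaction are standard errors of the fit over the libraries, and the floor of 3 counts covers counting error only.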

Additional observations from a re-analysis of the deposited data

Results flagged for a closer look

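Of the genes given by the naming rule and the families added to it, 58 had an interaction that differed between MDA-MB-453 and MDA-MB-231 in the 24-library model (adjusted p below 0.05), and 2 of these are left out because a group held at most 3 counts over its 3 libraries. The other 56 are given as the difference in log2. The naming rule gave 103 genes, to which the families were added, and most were named for their interaction in MDA-MB-453. The difference uses the same MDA-MB-453 libraries, so part of this count is built in by that choice. Among all genes of the 24-library model the difference was called for 510 of 12750 (4.00%). Higher in MDA-MB-453 were NEAT1 (2.28), SNHG1 (1.8), RBM6 (1.57), LINC01578 (1.45), HNRNPH1 (1.38), SNHG3 (1.17), TRA2A (1.08), FHOD1 (1.06), SNHG19 (1.05), RPL22L1 (1.03), RBM3 (0.963), HNRNPH3 (0.87), SNRPG (0.847), HNRNPDL (0.784), UQCRC2 (0.764), SRSF6 (0.746), KRT18 (0.714), CIRBP (0.704), MT-ATP6 (0.579), MT-CO3 (0.566), RPLP0 (0.522) and RPS27A (0.448). Lower in MDA-MB-453 were MTND1P23 (-3.08), AC090013.1 (-3.02), MT-TV (-2.8), CIP2A (-2.6), FRG1BP (-2.33), HSP90AA2P (-1.83), DDX10 (-1.7), TMEM97 (-1.64), SRRM1 (-1.63), NRIP1 (-1.62), SMC3 (-1.62), MAN1A2 (-1.61), SMC1A (-1.58), SP110 (-1.46), CENPF (-1.44), NFIC (-1.36), SMC2 (-1.34), EIF5B (-1.34), SMARCC1 (-1.33), EPRS1 (-1.2), NFIX (-1.15), WDR43 (-1.11), SON (-1.06), NFIB (-1.01), NCL (-0.988), HSP90AB1 (-0.97), HSP90AA1 (-0.956), PSMD1 (-0.947), SARS1 (-0.913), ATAD2 (-0.867), NFIA (-0.831), RAD21 (-0.814), PSMD7 (-0.791) and HSPH1 (-0.653). HSP90AA2P, FRG1BP and MTND1P23 are pseudogenes whose reads may come from close copies, and CIP2A had 1, 4 and 8 counts under both agents in MDA-MB-453. The A-run score of the libraries had an interaction of -0.20 in MDA-MB-453 and 0.18 in MDA-MB-231, and its part in these differences was not tested.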

How the results depend on the processing

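The counts of calls in MDA-MB-453 (131 above and 280 below) were 124 and 337 with DESeq2, 119 and 316 with DESeq2 size factors, 167 and 249 with total counts, and 105 and 401 with no filter on low counts. DESeq2 gave an adjusted p for 5504 genes, against 11080 in the main fit, and 49 of the 411 called genes had none there. They were 65 and 187 with all 24 libraries in 1 model, 33 and 19 on the linear CPM scale, 36 and 55 at an absolute log2 of at least 1, and 4 and 1 with the A-run score as covariate. GC and length correction gave 363 calls in all, and the fit without robust estimation, added after seeing the data, 125 and 296. Leaving out 1 library gave 48 to 362 above and 111 to 559 below. Leaving out abemaciclib replicate 1 and fulvestrant replicate 3 together, added after seeing the data, gave 595 and 767. With a replicate block there were 115 and 242 calls, and 113 and 205 with GC and length correction as well. In MDA-MB-231 (11 above and 5 below), DESeq2 gave 53 and 32, and leaving out 1 library gave 2 to 337 above and 1 to 147 below. For the difference between the lines DESeq2 gave 310 and 522. Of the 83 called genes that the naming rule gave, ATP6V1A changed sign with the covariate, to 0.0246, 79 were no longer called there and 3 were. No other alternative reversed one of these 83, and genes that were not called, such as MKI67 and TK1, changed sign under some alternatives. List medians that moved with the covariate by more than 1 SD between replicates were those of androgen and apocrine genes (-0.14), mitosis (0.0551), sterol and fatty acid genes (0.00288), glycolysis and hypoxia (-0.13), lysosome (-0.10), respiratory chain (-0.0217), cytosolic ribosomal proteins (-0.0157), proteasome (-0.0543) and cilium (0.0645), and with GC and length correction the ATF4 list (0.0852) and mitochondrial transcripts (0.20). Without adjustment of p, 1768 genes in MDA-MB-453 and 1292 in MDA-MB-231 were below 0.05.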
